A study of Homo sapiens with 12 samples.

Results

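BCL2, BCL2L1, BCL2A1 and BCL2L2 are the anti-apoptotic genes of the BCL2 family that stand beside MCL1. They were picked by name from a table of 58233 genes, and all 4 had enough reads to be tested. Poly(A)+ RNA was sequenced in 12 libraries from OCI-LY3 and VAL, both established human lines grown from diffuse large B-cell lymphoma. Each line gave 2 libraries after 3 h with 300 nM AZ5576, 2 libraries after 6 h with 300 nM AZ5576, and 2 libraries of untreated cells taken when treatment began (0 h). AZ5576 is a selective inhibitor of CDK9, the kinase that releases paused RNA polymerase II into elongation. The series text calls the comparison cells vehicle-treated and the labels call them untreated, so vehicle and time in culture cannot be told apart from the inhibitor. OCI-LY3 is commonly classed as activated B-cell-like, and VAL is known to carry a translocation that joins BCL2 to the immunoglobulin heavy-chain locus. Each line is 1 cell line, all libraries of a line shared 1 sequencing lane, and the lanes of the lines differed, so lane and line cannot be told apart. Whether the libraries of a group came from different cultures is not stated, so every p-value here reflects the spread between libraries alone, which may be technical.

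Proteins of this group sit mainly on the mitochondrial outer membrane. They hold the effectors BAX and BAK1 and the BH3-only proteins in check, and a cell whose BH3-only proteins outweigh them releases cytochrome c and activates caspases. BCL2 is the founding member and the target of venetoclax. BCL2L1 encodes BCL-XL, and a shorter splice form of the same gene promotes death, which a count per gene does not separate. BCL2A1 encodes BFL-1, known in B cells as a target of NF-kB, and BCL2L2 encodes BCL-W. In germinal-centre-derived lymphoma BCL2 is often raised by translocation, and lymphoma cells differ in which of these proteins they depend on.

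In the annotation, which is GENCODE release 29 on GRCh38, BCL2 (ENSG00000171791) lies on the minus strand at chr18:63123346-63320128 with 11.77 kb of exons. BCL2L1 (ENSG00000171552) lies on the minus strand at chr20:31664452-31723989 with 3.31 kb. BCL2A1 (ENSG00000140379) is the shortest, with 1.09 kb at chr15:79960889-79971446 on the minus strand. BCL2L2 (ENSG00000129473) lies on the plus strand at chr14:23298790-23311759 with 4.19 kb. RefSeq promoters on GRCh38.p14, 250 bases before the annotated start and 50 after it, matched 3 of the 4 genes, BCL2L1 with 2 starts. They are shown as a description, and a link between these windows and the levels of the genes was not tested. Capitals mark the motifs found.
BCL2 (chr18:63319720-63320019, minus strand): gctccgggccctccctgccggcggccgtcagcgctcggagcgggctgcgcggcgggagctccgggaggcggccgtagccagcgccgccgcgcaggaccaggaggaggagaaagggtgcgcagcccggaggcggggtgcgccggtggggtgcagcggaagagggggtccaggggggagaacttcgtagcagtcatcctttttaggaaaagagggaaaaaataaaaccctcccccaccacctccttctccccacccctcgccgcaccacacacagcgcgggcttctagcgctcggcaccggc
BCL2L1, upstream start (chr20:31723914-31724213, minus strand): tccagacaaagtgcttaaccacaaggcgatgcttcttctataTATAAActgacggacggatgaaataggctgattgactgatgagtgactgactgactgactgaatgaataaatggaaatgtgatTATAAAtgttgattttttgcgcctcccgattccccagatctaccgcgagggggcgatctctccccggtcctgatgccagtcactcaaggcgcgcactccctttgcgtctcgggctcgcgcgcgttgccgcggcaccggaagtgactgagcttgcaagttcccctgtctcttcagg
BCL2L1, downstream start (chr20:31722819-31723118, minus strand): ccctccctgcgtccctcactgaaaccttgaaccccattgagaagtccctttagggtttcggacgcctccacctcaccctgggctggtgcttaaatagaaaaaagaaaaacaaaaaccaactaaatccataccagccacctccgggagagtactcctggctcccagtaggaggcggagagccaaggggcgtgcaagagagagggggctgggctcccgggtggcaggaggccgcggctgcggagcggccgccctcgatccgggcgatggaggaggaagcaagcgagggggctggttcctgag
BCL2A1 (chr15:79971147-79971446, minus strand): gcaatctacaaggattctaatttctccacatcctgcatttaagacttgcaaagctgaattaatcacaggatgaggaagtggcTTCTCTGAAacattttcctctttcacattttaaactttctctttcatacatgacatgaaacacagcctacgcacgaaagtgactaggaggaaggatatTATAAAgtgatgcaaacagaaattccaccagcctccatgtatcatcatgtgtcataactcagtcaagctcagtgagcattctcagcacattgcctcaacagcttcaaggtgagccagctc

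The BCL2 window was 70.7% G and C with 31 CG dinucleotides, against medians of 58.7% and 14 over 35116 RefSeq promoters. The BCL2L1 windows held 20 CG dinucleotides at 52% G and C at the upstream start, and 16 at 61.3% at the downstream start. The BCL2A1 window was poor in both, with 2 CG dinucleotides at 41% G and C. On both strands 4 motifs were searched: the TATA box as TATAAA, the STAT-type palindrome as TTCNNNGAA, the AP-1 site as TGANTCA, and the NF-kB consensus. TATAAA lay in the BCL2A1 window at -70 from the start and in the upstream BCL2L1 window at -208 and -125. TTCNNNGAA lay in the BCL2A1 window at -168. Of all RefSeq promoters 11.5% hold TATAAA, 7.66% TTCNNNGAA, 7.71% TGANTCA and 11.3% the NF-kB consensus. No match in a window says only that these letters are not in it.

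The libraries held between 23175082 and 39715536 counts. Levels below are in CPM, which is counts scaled to a common library total with TMM, and changes are log2 ratios with standard errors (SE) from edgeR's quasi-likelihood fit over all 6 groups, and a comparison passed when its Benjamini-Hochberg adjusted p from edgeR was under 0.05. The replicates of treated VAL stood far apart. The chi-square per degree of freedom between the 2 libraries of a group was 2.31, 19.8 and 2.95 in OCI-LY3 at 0, 3 and 6 h, and 1.66, 63.7 and 51.9 in VAL. All VAL libraries numbered 1 are marked as resubmitted in the labels, those at 0 h included. Mitochondrially encoded mRNAs took 2.25% to 2.37% of counts in OCI-LY3 at 0 h, 3.77% to 5.24% of counts at 3 h and 5.14% to 5.38% of counts at 6 h. In VAL these shares were 1.74% to 1.95%, 3.17% to 4.68% and 5.15% to 6.90%. Scaled to these mRNAs instead of by TMM, the median change over all genes was -1.09 in OCI-LY3 at 3 h, -1.55 in OCI-LY3 at 6 h, -1.23 in VAL at 3 h and -2.06 in VAL at 6 h, against medians of 0.00, -0.01, 0.16 and 0.10 with TMM. Every level is thus relative to the rest of the RNA, and in bulk samples fewer cells of a type and less RNA per cell cannot be told apart. The B-cell markers MS4A1, CD79A, CD79B and PAX5 together reached 2217 to 2838 CPM in every library. T-cell markers summed to 2.29 to 6.02 CPM and erythroid markers to at most 0.151 CPM. Myeloid markers summed to 5.08 to 21.3 CPM in OCI-LY3 and 0.535 to 16.7 CPM in VAL and were highest at 6 h, with MPO and CD33 at 0 in some libraries. Epithelial and stromal markers reached 28.8 to 104 CPM in OCI-LY3, also highest at 6 h, and 0.190 to 1.27 CPM in VAL, with EPCAM, KRT8, KRT19 and COL1A2 at 0 in some libraries. Of the 5 genes in this list only 1 had enough reads to be tested. In untreated cells it was higher in OCI-LY3 than in VAL by 7.04 in log2. The part of these markers in the results was not tested.

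BCL2 was the member with the widest range, far lower in OCI-LY3 than in VAL and split between the treated VAL libraries. In OCI-LY3 its level was 22.9 and 23.4 CPM at 0 h, 13.6 and 15.2 CPM at 3 h, and 23.3 and 20.5 CPM at 6 h. In VAL it was 438 and 422 CPM at 0 h, 510 and 190 CPM at 3 h, and 766 and 334 CPM at 6 h, where the first value of each pair is library 1. In OCI-LY3 both 3 h libraries lay below all others, and the 6 h libraries overlapped the 0 h libraries. In VAL library 1 was above both 0 h libraries and library 2 below both, at 3 h and at 6 h alike.

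In untreated cells BCL2 was 18.6-fold lower in OCI-LY3 than in VAL (-4.22 ± 0.46 in log2, adjusted p = 1.58e-05), the largest difference among the 4 members. With treatment no comparison of BCL2 passed. In OCI-LY3 the changes were -0.68 ± 0.43 at 3 h (adjusted p = 0.232) and -0.08 ± 0.43 at 6 h (adjusted p = 0.900), with 95% intervals of -1.63 to 0.27 and -1.02 to 0.86. In VAL they were -0.30 ± 0.40 at 3 h (adjusted p = 0.557) and 0.36 ± 0.40 at 6 h (adjusted p = 0.456), with intervals of -1.19 to 0.59 and -0.53 to 1.25. Both lines had a higher mean at 6 h than at 3 h, by 0.60 ± 0.44 in OCI-LY3 (adjusted p = 0.345) and 0.65 ± 0.41 in VAL (adjusted p = 0.293), and neither passed.

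The fit shares one spread per gene over all groups, so the treated VAL libraries also set the error of BCL2 in OCI-LY3. With each line fitted alone, the values in OCI-LY3 stayed at -0.68 at 3 h and 0.60 between 3 h and 6 h and passed (edgeR adjusted p = 2.14e-07 and 8.3e-06). In VAL the changes against 0 h turned on which libraries were used. Without the treated VAL libraries numbered 1, the fitted changes were -1.17 at 3 h and -0.36 at 6 h. Without those numbered 2 they were 0.25 and 0.83. Each treated VAL group is then 1 library, assumed to vary like the other groups, and the split was made after the gap had been seen, so these values are descriptions without a test.

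**Figure D1:**
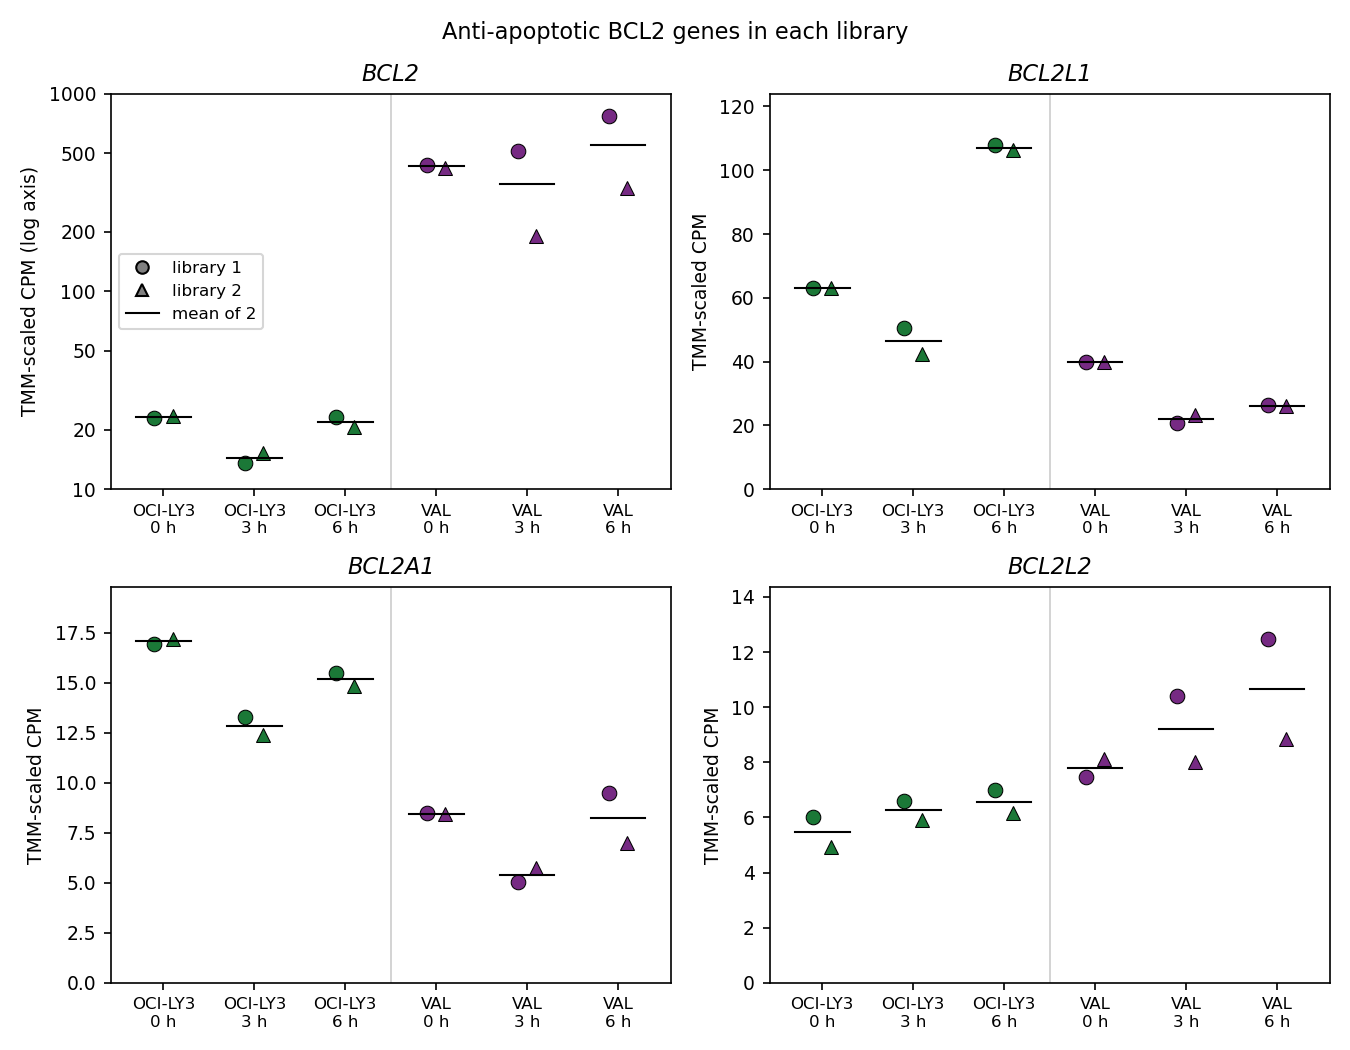
TMM-scaled CPM (vertical axis, logarithmic for BCL2 and linear from 0 for the others) of each gene in the 12 libraries by line and time (horizontal axis); circles are library 1, triangles library 2, and the line is the mean of 2. BCL2 in treated VAL lies at 510 and 766 CPM in library 1 and at 190 and 334 CPM in library 2, while those of BCL2L1 in treated VAL lie at 20.7 and 26.4 CPM in library 1 and at 23.4 and 26.1 CPM in library 2.

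Few genes had as wide a gap as BCL2 between the libraries of treated VAL. On a log2 scale its library 1 exceeded library 2 by 1.42 at 3 h and 1.20 at 6 h, against 0.05 at 0 h. Over 16374 tested genes the SD of this gap was 0.61, 0.59 and 0.29, and 2.32% of genes had a higher gap at 3 h and 3.32% at 6 h. Counted in either direction, 3.22% of genes had a wider gap at 3 h and 5.03% at 6 h. That BCL2 varied between these libraries was known beforehand, so its rank is a description. The gap moved with exonic length, a relation looked at after the values were seen. In VAL at 3 h its median was -0.36 over 1110 protein-coding genes under 2 kb and 0.40 over 1477 genes of at least 10 kb, and at 6 h it was -0.34 and 0.38. At 0 h these medians were 0.02 and -0.01. In OCI-LY3 at 3 h the order was the other way, with 0.14 for the short genes and -0.15 for the long ones. BCL2 is among the longest, as 7.03% of the tested coding genes are as long or longer. Its gap still stood above most genes of that length, as 38 of the 1477 at 3 h and 62 at 6 h reached it. The part of transcript length in the BCL2 values was not tested.

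**Figure D2:**
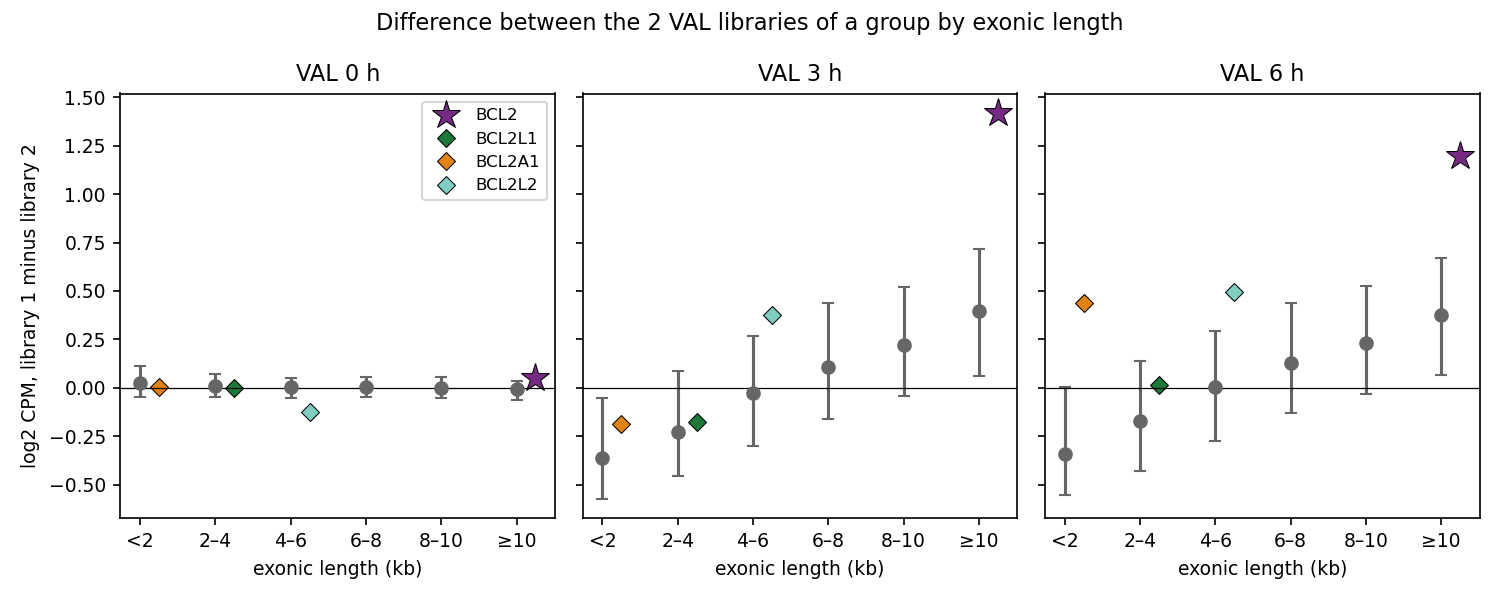
Difference in log2 CPM between library 1 and library 2 of VAL (vertical axis) for protein-coding genes by exonic length in kb (horizontal axis), at 0, 3 and 6 h; grey points are medians with the quartiles as bars, and coloured symbols are the 4 genes. The grey medians climb with length at 3 h and 6 h but not at 0 h, and BCL2 lies at 1.42 and 1.20, above the upper quartile of its length class.

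The genes nearest to BCL2 had smaller gaps between the treated VAL libraries. KDSR, which encodes a reductase of sphingolipid synthesis, lies 7598 bp away on the same strand. In OCI-LY3 it stood at 25.8 and 26.5 CPM at 0 h, 21.5 and 21.1 CPM at 3 h, and 15.7 and 14.3 CPM at 6 h, and in VAL at 26.2 and 25.9, 15.1 and 17.3, and 10.2 and 10.6 CPM. PHLPP1, a phosphatase gene 142913 bp away, stood in VAL at 14.4 and 15.4 CPM at 0 h, 14.7 and 12.3 CPM at 3 h, and 10.7 and 6.80 CPM at 6 h. The 2 annotated transcripts inside BCL2 held 5 and 26 counts in all 12 libraries and share no exon with it.

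Since the translocation known in VAL places BCL2 beside immunoglobulin heavy-chain genes, 6 of those genes were followed together with JCHAIN, which encodes the joining chain of antibodies. Of these 7 genes 0 rose and 1 fell in OCI-LY3 at 3 h, against 17.8% and 24.3% of all tested genes, and 2 rose and 0 fell at 6 h, against 28.1% and 33.4%. In VAL 4 rose and 0 fell at 3 h, against 29.6% and 25.1% of all genes, and 4 rose and 1 fell at 6 h, against 34% and 32.2%. IGHG1 changed in OCI-LY3 by -0.58 ± 0.11 at 3 h. It rose in VAL by 1.30 ± 0.11 at 3 h and 2.07 ± 0.11 at 6 h, values that were -0.13 and -0.11 when scaled to mitochondrially encoded mRNAs. Reads of the IGHG genes, which are near-identical, are not assigned with certainty. The list's median change was 0.15 and 0.28 in OCI-LY3 at 3 h and 6 h, against 0.00 and -0.01 over all genes, and 0.46 and 0.45 in VAL, against 0.16 and 0.10.

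BCL2L1 was above its 0 h level at 6 h in OCI-LY3 and below it in VAL. In OCI-LY3 its level was 63.2 and 63.2 CPM at 0 h, 50.4 and 42.4 CPM at 3 h, and 108 and 106 CPM at 6 h. In VAL it was 39.9 and 39.9 CPM at 0 h, 20.7 and 23.4 CPM at 3 h, and 26.4 and 26.1 CPM at 6 h. No 2 neighbouring groups in its order of levels overlapped, from OCI-LY3 at 6 h as the highest to VAL at 3 h as the lowest.

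In OCI-LY3 BCL2L1 fell by 3 h (-0.45 ± 0.11, adjusted p = 0.00722) and at 6 h was 1.70-fold above 0 h (0.76 ± 0.11, adjusted p = 0.000111). Between 3 h and 6 h it rose 2.31-fold (1.21 ± 0.11, adjusted p = 4.96e-05). In VAL it fell 1.81-fold by 3 h (-0.86 ± 0.11, adjusted p = 8.58e-05) and was still lower at 6 h (-0.60 ± 0.11, adjusted p = 0.000612). The return of 0.25 ± 0.11 in VAL between 3 h and 6 h did not pass (adjusted p = 0.138). The change at 6 h in OCI-LY3 exceeded that in VAL by 1.37 ± 0.16 (adjusted p = 0.000309). At 3 h the difference of 0.41 ± 0.16 did not pass (adjusted p = 0.131). In untreated cells BCL2L1 was higher in OCI-LY3 than in VAL (0.66 ± 0.11, adjusted p = 0.000334), a value of 0.20 that did not pass when scaled to mitochondrially encoded mRNAs.

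When libraries were scaled to mitochondrially encoded mRNAs, the rise of BCL2L1 in OCI-LY3 at 6 h turned into a fall of -0.80 ± 0.30. That fall passed (edgeR adjusted p = 0.0125), against a median of -1.55 over all genes. Relative to that median BCL2L1 was 0.76 higher, and with TMM scaling 0.77 higher than the median gene. The difference between lines at 6 h kept its sign and passed in every setting that could give it, at 1.36 to 1.99. Leaving out single libraries took the 3 h value in OCI-LY3 to between -0.58 and -0.28, and it no longer passed in 3 of 12 cases. The antisense gene ABALON shares 1424 exonic bases with BCL2L1 and the kit does not mark strand, so their reads cannot be told apart there. ABALON held 6 to 40 counts per library, against 549 to 2797 for BCL2L1. How the counting treated shared reads is not given, so these counts do not show how many reads the overlap affected.

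BCL2A1 fell at 3 h in both lines, and its changes at 6 h did not pass. In OCI-LY3 it stood at 16.9 and 17.2 CPM at 0 h, 13.3 and 12.4 CPM at 3 h, and 15.5 and 14.9 CPM at 6 h, with no overlap between times. In VAL it stood at 8.47 and 8.44 CPM at 0 h, 5.03 and 5.73 CPM at 3 h, and 9.50 and 6.99 CPM at 6 h, where the 6 h libraries lay on either side of the 0 h libraries. All OCI-LY3 libraries were above all VAL libraries. The fall was -0.41 ± 0.14 in OCI-LY3 at 3 h (adjusted p = 0.0384) and -0.65 ± 0.15 in VAL at 3 h (adjusted p = 0.00408). At 6 h the values were -0.17 ± 0.14 in OCI-LY3 (adjusted p = 0.325) and -0.03 ± 0.15 in VAL (adjusted p = 0.871).

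Between 3 h and 6 h BCL2A1 rose in VAL (0.62 ± 0.16, adjusted p = 0.0148), a change of -0.18 when scaled to mitochondrially encoded mRNAs, where the median gene was at -0.76. In OCI-LY3 the same step was 0.24 ± 0.15 and did not pass (adjusted p = 0.252). Without the treated VAL libraries numbered 1, which leaves 1 library at each of these times, the value in VAL was 0.29. The call in OCI-LY3 at 3 h was lost with DESeq2's size factors (-0.29, adjusted p = 0.106) and in 8 of the 12 fits that left out a library. In untreated cells BCL2A1 was 2.02-fold higher in OCI-LY3 than in VAL (1.01 ± 0.14, adjusted p = 0.000114), a value of 0.55 that did not pass when scaled to mitochondrially encoded mRNAs. Its lowest count in a library was 144.

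Transcription factors known to act on these genes were read from a list of 9: the NF-kB subunits NFKB1, NFKB2, REL, RELA and RELB, the signal transducers STAT3, STAT5A and STAT5B, and the repressor BCL6. In OCI-LY3 0 rose and 5 fell at 3 h, where 17.8% of all genes rose and 24.3% fell, and 2 rose and 3 fell at 6 h, where 28.1% rose and 33.4% fell. In VAL 3 rose and 3 fell at 3 h, where 29.6% of all genes rose and 25.1% fell, and 3 rose and 4 fell at 6 h, where 34% rose and 32.2% fell. RELA fell in each comparison with 0 h, by -0.85 ± 0.14 and -1.76 ± 0.15 in OCI-LY3 at 3 h and 6 h and by -1.51 ± 0.15 and -2.69 ± 0.16 in VAL. RELB fell in VAL, by -1.27 ± 0.13 at 3 h and -2.48 ± 0.14 at 6 h. BCL6 changed by -1.26 ± 0.10 in OCI-LY3 at 3 h, 0.54 ± 0.10 in OCI-LY3 at 6 h and 1.12 ± 0.10 in VAL at 6 h, the last 2 being -1.02 and -1.06 when scaled to mitochondrially encoded mRNAs. The list's median was -0.31 and -0.30 in OCI-LY3 at 3 h and 6 h, against 0.00 and -0.01 over all genes, and 0.05 and 0.12 in VAL, against 0.16 and 0.10.

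None of the comparisons of BCL2L2 with treatment passed. In OCI-LY3 its level was 6.00 and 4.92 CPM at 0 h, 6.60 and 5.92 CPM at 3 h, and 6.98 and 6.16 CPM at 6 h. In VAL it was 7.45 and 8.13 CPM at 0 h, 10.4 and 8.01 CPM at 3 h, and 12.5 and 8.85 CPM at 6 h. In each line the 3 h libraries overlapped the 0 h libraries. The changes were 0.20 ± 0.20 and 0.26 ± 0.20 in OCI-LY3 at 3 h and 6 h, and 0.24 ± 0.19 and 0.46 ± 0.19 in VAL, where the 6 h value lay just short of the threshold (adjusted p = 0.0542). DESeq2's Wald test put that value at 0.52, and there it passed, while scaling to mitochondrially encoded mRNAs gave -1.75, which passed as lower. In untreated cells BCL2L2 was lower in OCI-LY3 than in VAL (-0.51 ± 0.19, adjusted p = 0.0413), a call lost in 5 of the 12 fits that left out a library.

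BCL2L2 had 140 to 330 counts per library, and its exons overlap others. It shares 206 exonic bases with PPP1R3E on the opposite strand and 813 with the readthrough gene BCL2L2-PABPN1 on its own. PPP1R3E, a regulatory subunit of a glycogen-associated phosphatase, stood in OCI-LY3 at 17.2 and 16.3 CPM at 0 h, 24.2 and 24.2 CPM at 3 h, and 16.6 and 15.0 CPM at 6 h. In VAL it stood at 31.9 and 32.3, 62.2 and 50.2, and 75.2 and 60.8 CPM, the same order of times as BCL2L2 there. The readthrough gene held 49 counts over the 12 libraries. How the counting treated shared reads is not given in the sources used here, and the part of these overlaps was not tested.

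**Figure D3:**
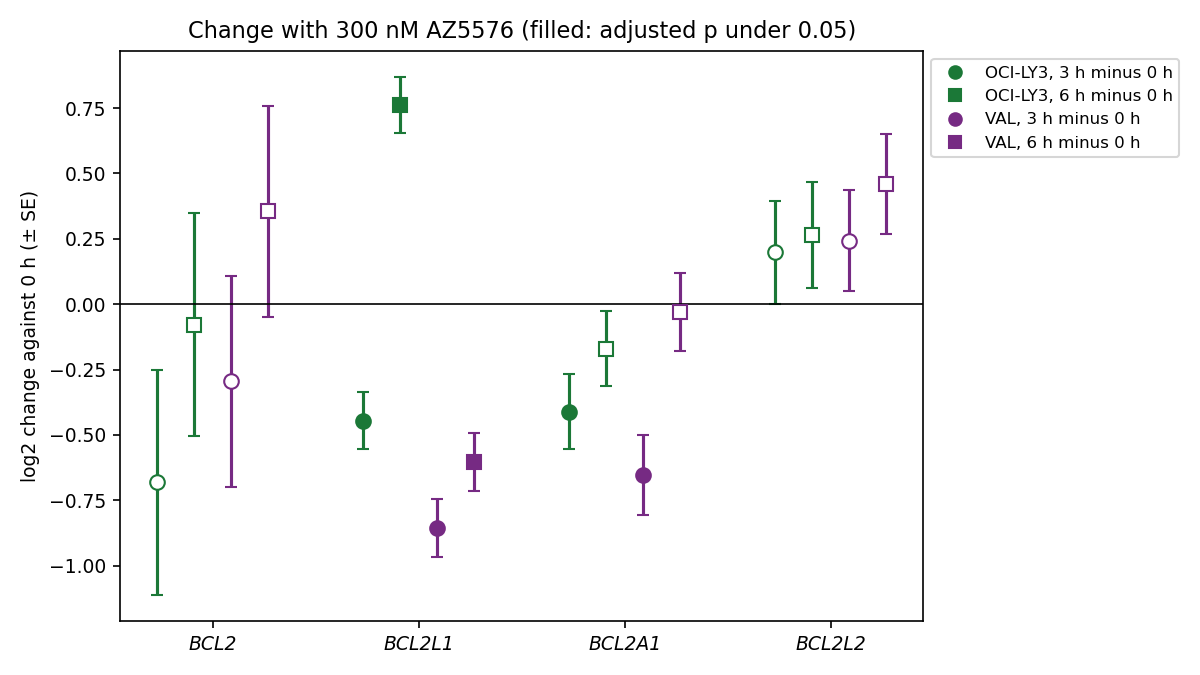
Log2 change against 0 h (vertical axis, with SE as bars) of each gene (horizontal axis) at 3 h (circles) and 6 h (squares) in OCI-LY3 (green) and VAL (purple); filled symbols passed. Only BCL2L1 in OCI-LY3 at 6 h passed as higher, at 0.76 with TMM scaling, and the bars of BCL2 are the longest. Scaled to mitochondrially encoded mRNAs, that BCL2L1 value was -0.80 and passed as lower.

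Counted by comparison, 0 of the 4 members rose and 2 fell in OCI-LY3 at 3 h, where 17.8% of all tested genes rose and 24.3% fell, 42.1% in all. At 6 h in OCI-LY3 1 member rose and 0 fell, against 28.1% and 33.4% of all genes, 61.5% in all. In VAL 0 members rose and 2 fell at 3 h, against 29.6% and 25.1%, 54.7% in all, and at 6 h 0 rose and 1 fell, against 34% and 32.2%, 66.1% in all. Between 3 h and 6 h 1 member rose and 0 fell in OCI-LY3, where 12% of genes rose and 16.3% fell, 28.3% in all. In VAL likewise 1 rose and 0 fell between these times, where 7.54% of genes rose and 15.3% fell, 22.8% in all. In untreated cells 2 members were higher and 2 lower in OCI-LY3 than in VAL, against 29.8% and 26.5% of all genes, 56.3% in all. For the difference between the lines' changes, 0 of 4 passed at 3 h, where 2.73% of genes were higher and 3.3% lower in OCI-LY3, 6.03% in all. At 6 h 1 was higher and 0 lower, where 12.3% of genes were higher and 14.4% lower, 26.8% in all. Taken in both directions, most of these counts lie near the share of all genes that passed. Fewer members than that share passed at 6 h against 0 h, and between untreated lines all 4 did. At 3 h against 0 h every call was a fall. With only 4 genes, such departures were not tested. The differences that did not pass were, for BCL2, -0.39 ± 0.59 at 3 h and -0.43 ± 0.59 at 6 h (OCI-LY3 minus VAL, edgeR adjusted p = 0.761 and 0.636). For BCL2A1 they were 0.24 ± 0.21 and -0.14 ± 0.21 (adjusted p = 0.521 and 0.671), and for BCL2L2 -0.05 ± 0.28 and -0.19 ± 0.28 (adjusted p = 0.975 and 0.658). Errors of this size do not show that the lines responded alike. Comparisons at 3 h and 6 h share the 0 h libraries of their line. The members' median change was -0.43 and 0.09 in OCI-LY3 at 3 h and 6 h, and -0.47 and 0.16 in VAL.

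MCL1, the short-lived member of the family, changed by -2.51 ± 0.16 in OCI-LY3 at 3 h and -1.62 ± 0.16 at 6 h, and by -1.88 ± 0.16 and -0.95 ± 0.16 in VAL. To set levels of different genes side by side, CPM was divided by exonic length, and each gene was expressed as a share of the 5 genes with MCL1 included. These shares depend on the annotated exons, which need not all be used, and BCL2L1 and BCL2L2 share some of theirs with other genes. They are independent of the scaling between libraries. A gap that moves with exonic length, as between the treated VAL libraries, can still enter them, and its part was not tested. BCL2L10 had too few reads to be tested and is not in the sum.

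Per kb of exon the 4 members together made up 37.0% to 37.7% of this sum in the OCI-LY3 libraries at 0 h, 71.5% to 72.0% of it at 3 h and 68.9% to 72.4% of it at 6 h. In VAL they made up 51.6% to 51.9% of the sum at 0 h, 71.5% to 76.7% of it at 3 h and 63.0% to 74.1% of it at 6 h. All treated libraries lay above all 0 h libraries of their line in this share. The members' own sum did not move in the same way, at 38.0 and 38.0 CPM per kb in the OCI-LY3 libraries at 0 h, 30.1 and 26.9 CPM per kb at 3 h and 50.4 and 48.9 CPM per kb at 6 h. In the VAL libraries it was 58.8 and 57.6 CPM per kb at 0 h, 56.7 and 30.4 CPM per kb at 3 h and 84.8 and 44.8 CPM per kb at 6 h. MCL1 alone was at 62.8 and 64.8 CPM per kb in OCI-LY3 and 54.4 and 53.9 CPM per kb in VAL at 0 h, and at 10.7 to 29.6 CPM per kb in the treated libraries. In OCI-LY3 the share of BCL2L1 per kb was 18.7 ± 0.26% at 0 h, 35.2 ± 1.66% at 3 h and 46.0 ± 2.12% at 6 h (SD, n = 2). BCL2A1 took 15.4 ± 0.037%, 29.7 ± 0.82% and 19.8 ± 0.54% (SD, n = 2), and BCL2 took at most 3.45% in any OCI-LY3 library.

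In VAL BCL2 held the greatest share of the members in every library, with 32.8% and 32.2% of the sum at 0 h, 58.6% and 38.1% of it at 3 h and 56.9% and 39.9% of it at 6 h. It ranked below MCL1 per kb at 0 h and above it in all 4 treated VAL libraries, although library 1 and library 2 differed in its level. The shares of shorter members also differed between these libraries. At 3 h in VAL BCL2L1 took 8.44% and 16.6% of the sum in libraries 1 and 2, and BCL2A1 took 6.25% and 12.4%. The per-kb ratio of BCL2 to MCL1 in VAL was 0.683 and 0.665 in the 0 h libraries, 2.51 and 1.34 in the 3 h libraries and 2.20 and 1.08 in the 6 h libraries. Without division by length, BCL2 had more counts than MCL1 in the VAL 0 h libraries too, with ratios of 1.84 and 1.79. In OCI-LY3 BCL2L1 changed rank with MCL1, with a per-kb ratio of 0.303 and 0.294 in the 0 h libraries, 1.30 and 1.19 in the 3 h libraries and 1.43 and 1.72 in the 6 h libraries. BCL2A1 was above MCL1 in both OCI-LY3 libraries at 3 h only, with a per-kb ratio of 0.248 and 0.244 in the 0 h libraries, 1.04 and 1.06 in the 3 h libraries and 0.625 and 0.733 in the 6 h libraries. In counts BCL2L1 was below MCL1 in the OCI-LY3 3 h libraries (ratios 0.985 and 0.905) and above it at 6 h (1.08 and 1.31). BCL2A1 was below MCL1 in counts at 3 h as well (0.259 and 0.265). BCL2L2 stayed low, at 1.14% to 4.49% of the sum in the 12 libraries.

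**Figure D4:**
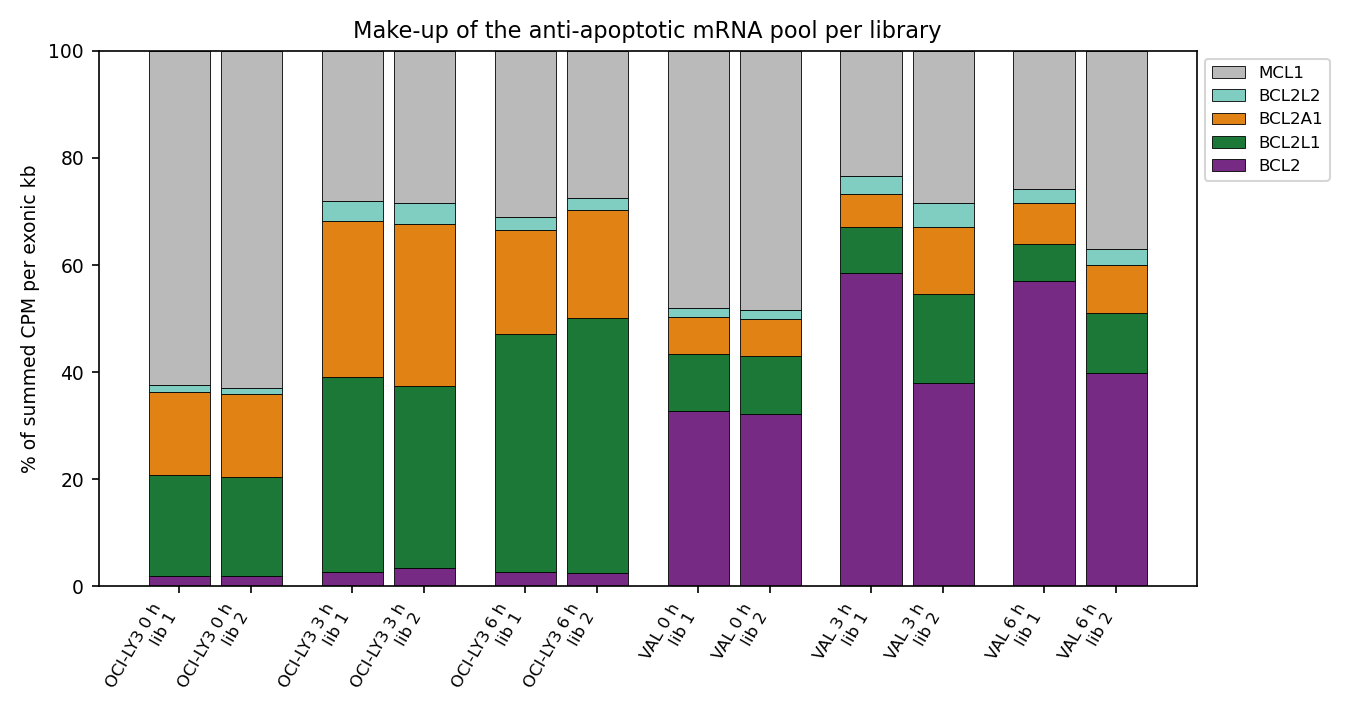
Share of each gene in the summed CPM per exonic kb of BCL2, BCL2L1, BCL2A1, BCL2L2 and MCL1 (vertical axis, percent) in each library (horizontal axis). The grey part, MCL1, takes 62.3% and 63.0% in OCI-LY3 and 48.1% and 48.4% in VAL at 0 h and less in every treated library of the same line.

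BH3-only proteins are the sensors that bind and neutralize the anti-apoptotic proteins. Of their 8 genes 0 rose and 5 fell in OCI-LY3 at 3 h, where 17.8% of all genes rose and 24.3% fell, and 1 rose and 3 fell at 6 h, where 28.1% rose and 33.4% fell. In VAL 0 rose and 5 fell at 3 h, where 29.6% rose and 25.1% fell, and 1 rose and 4 fell at 6 h, where 34% rose and 32.2% fell. BMF fell in each comparison with 0 h, by -2.14 ± 0.24 and -2.72 ± 0.27 in OCI-LY3 at 3 h and 6 h and by -1.66 ± 0.17 and -2.43 ± 0.18 in VAL. BBC3, which encodes PUMA, fell in OCI-LY3 at 3 h (-2.69 ± 0.28) and rose in VAL at 6 h (1.88 ± 0.22, but -0.27 when scaled to mitochondrially encoded mRNAs). The list's median was -0.96 and -0.36 in OCI-LY3, against 0.00 and -0.01 over all genes, and -0.74 and -0.46 in VAL, against 0.16 and 0.10.

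Of the 3 effectors BAX, BAK1 and BOK, 0 rose and 1 fell in each of the 4 comparisons with 0 h, where 17.8% to 34% of all genes rose and 24.3% to 33.4% fell. The one that fell was BAK1, by -1.19 ± 0.14 and -1.59 ± 0.14 in OCI-LY3 at 3 h and 6 h and by -1.90 ± 0.15 and -2.24 ± 0.15 in VAL. Of 8 genes that act at or downstream of the mitochondria, 0 rose and 2 fell in OCI-LY3 at 3 h, beside the same 17.8% and 24.3% of all genes. At 6 h 2 rose and 6 fell, beside 28.1% and 33.4%. In VAL 2 rose and 1 fell at 3 h, beside 29.6% and 25.1%, and 2 rose and 4 fell at 6 h, beside 34% and 32.2%. Their median change was -0.15 and -0.53 in OCI-LY3 at 3 h and 6 h, against 0.00 and -0.01 over all genes, and 0.0035 and -0.46 in VAL, against 0.16 and 0.10. VDAC2, which encodes a mitochondrial channel that binds BAK1, rose in OCI-LY3 at 6 h (0.74 ± 0.16) and in VAL at 3 h (0.40 ± 0.16), values of -0.82 and -0.97 when scaled to mitochondrially encoded mRNAs. Under that scaling 0 genes of these lists rose in any comparison with 0 h.

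In untreated cells 0 of the 8 BH3-only genes were higher and 5 were lower in OCI-LY3 than in VAL, against 29.8% and 26.5% of all genes. BCL2L11, which encodes BIM, a binding partner of BCL2, was lower in OCI-LY3 than in VAL by -2.91 ± 0.15 (adjusted p = 4.36e-08), in the same direction as BCL2. BMF was lower in OCI-LY3 by -3.44 ± 0.19 (adjusted p = 6.62e-08).

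Likeness of pattern was measured as the root-mean-square difference in log2 CPM after each gene was set to its line's 0 h mean, among 8736 protein-coding genes of at least 5 CPM. The nearest to BCL2 over 12 libraries were KMT2C (0.20), SMCR8 (0.27) and CD80 (0.29), and over the 6 VAL libraries ZNF292 (0.17), KMT2C (0.18) and CCDC186 (0.18), where the median gene was at 0.81 and 0.90. KMT2C and ZNF292 have 20.114 kb and 13.128 kb of exons. CCDC186, SMCR8 and CD80 have 9.003 kb, 8.279 kb and 3.201 kb, less than the 11.77 kb of BCL2. BCL2L1 was nearest to THAP2 (0.18), ZBTB5 (0.19) and ESPNL (0.22), BCL2A1 to VAMP2 (0.12), SYVN1 (0.17) and DTX1 (0.18), and BCL2L2 to NECAB3 (0.12), ALAD (0.13) and KIAA0319L (0.13). The likeness is a description, and libraries share their scaling and their 0 h mean.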

How the data were processed

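RNA-seq counts of 58233 genes in 12 libraries and a log2 table of the same libraries were used. The raw count per gene and library was deposited by the authors, and per the labels the RNA was poly(A)+, prepared with a kit that does not mark strand and read from a single end for 100 cycles. The log2 values were deposited by the authors as a normalized table, and the submitters' processing notes name GRCh38 and DESeq2, while aligner, counter and versions are not named in what was at hand. Here the counts of 16374 genes that passed edgeR's filterByExpr were scaled by TMM and fitted with the quasi-likelihood test of edgeR 4.0.16 (R 4.3.3) over 6 groups without a replicate block, leaving 6 residual degrees of freedom. Adjusted p-values follow Benjamini and Hochberg within each of 9 comparisons, with a threshold of 0.05. The scripts were tested on simulated data with planted changes.

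DESeq2 1.42.0, limma 3.58.1, other scalings, no filter, a replicate block, each line alone and each library left out were run as alternatives, and leaving out the treated VAL libraries of 1 number was added after the data were seen. Exonic lengths are the merged exons of GENCODE 29. Likeness used log2 CPM with a prior count of 2, among protein-coding genes of mean CPM of at least 5, with 3 genes named per member. Of each pathway list at most 4 genes past the threshold with the smallest adjusted p were to be named, besides MCL1. The members and lists were chosen with earlier results of these data known. The libraries held 23175082 to 39715536 counts, and 35090 genes had at least 1 count. Some genes of the lists are not reported here and are not in their counts.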

Additional observations from a re-analysis of the deposited data

Results flagged for a closer look

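BCL2L1 stood out because its change at 6 h differed between lines by the test of the difference itself. The change in OCI-LY3 exceeded that in VAL by 1.37 ± 0.16 on the log2 scale (edgeR adjusted p = 0.000309), with 2 of 2 libraries higher in OCI-LY3 and 2 of 2 lower in VAL than at 0 h. Scaled to mitochondrially encoded mRNAs, both lines were below 0 h and the difference was 1.99. The median gene then had a difference of 0.59, against -0.04 with TMM scaling.

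BCL2L1 in OCI-LY3 also differed between times, at 1.21 ± 0.11 for 6 h against 3 h (edgeR adjusted p = 4.96e-05), with both 6 h libraries above both 3 h libraries.

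BCL2A1 in VAL differed between times, at 0.62 ± 0.16 for 6 h against 3 h (edgeR adjusted p = 0.0148). It was 9.50 and 6.99 CPM at 6 h, against 5.03 and 5.73 CPM at 3 h, and the value was 0.29 without the treated VAL libraries numbered 1 and -0.18 when scaled to mitochondrially encoded mRNAs.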

How the results depend on the processing

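With 2 libraries per group, 1 library decides some of the calls, and a change not called here is not shown to be absent. The lowest counts, 140 for BCL2L2 and 144 for BCL2A1 in a library, limit what could be seen for these genes. Levels are relative to the rest of the RNA, and no measure of total RNA per cell is used here. Over 9 comparisons and 4 genes, 293 values from other settings kept both sign and side of the threshold, 10 lost a call, 39 gained one and 42 changed sign. With single libraries left out 390 kept both, 18 lost a call, 6 gained one and 18 changed sign. Values that changed sign are counted only as such, whether or not they passed. The causes of these shifts were not tested. The fall of BCL2L1 in VAL at 3 h and 6 h, its rise in OCI-LY3 between 3 h and 6 h, the fall of BCL2A1 in VAL at 3 h, the difference of BCL2 between untreated lines and the difference of BCL2L1 between lines at 6 h kept sign and call in every setting run. With DESeq2's size factors in edgeR, the sign changed for BCL2 0.090 in OCI-LY3 at 6 h, BCL2A1 0.032 in VAL at 6 h and BCL2L2 0.064 for the difference between lines at 3 h. Lost there was the call for BCL2A1 -0.29 in OCI-LY3 at 3 h. Gained there was a call for BCL2L2 0.52 in VAL at 6 h. With library totals alone, the sign changed for BCL2L2 -0.0071 in OCI-LY3 at 3 h, BCL2L2 -0.10 in OCI-LY3 at 6 h and BCL2L2 -0.097 in OCI-LY3 between 3 h and 6 h. So it did for BCL2L2 -0.11 in VAL at 3 h, BCL2 -0.099 and BCL2L2 -0.017 in VAL at 6 h and BCL2L2 0.100 for the difference between lines at 3 h. The call was lost for BCL2A1 0.50 in VAL between 3 h and 6 h. New calls there were BCL2A1 -0.54 in OCI-LY3 at 6 h and BCL2A1 -0.51 in VAL at 6 h. Scaled to mitochondrially encoded mRNAs, the sign changed for BCL2L2 -0.94 in OCI-LY3 at 3 h, BCL2L1 -0.80 and BCL2L2 -1.29 in OCI-LY3 at 6 h and BCL2A1 -0.18 and BCL2L2 -0.35 in OCI-LY3 between 3 h and 6 h. So it did for BCL2L2 -1.20 in VAL at 3 h, BCL2 -1.87 and BCL2L2 -1.75 in VAL at 6 h and BCL2 -0.071, BCL2L1 -0.54, BCL2A1 -0.18 and BCL2L2 -0.55 in VAL between 3 h and 6 h. So it did for BCL2 0.0098 and BCL2L2 0.25 for the difference between lines at 3 h and BCL2 0.24, BCL2A1 0.51 and BCL2L2 0.46 for the difference between lines at 6 h. Under this scaling the median gene stood at 0.19 and 0.59 for these differences at 3 h and 6 h. Lost there was the call for BCL2L1 0.20 and BCL2A1 0.55 for OCI-LY3 against VAL at 0 h. A call was gained for BCL2 -1.79 in OCI-LY3 at 3 h, BCL2 -1.64 and BCL2A1 -1.73 in OCI-LY3 at 6 h and BCL2 -1.80 in VAL at 3 h. So it was for BCL2A1 -2.23 in VAL at 6 h. Among the values that changed sign, BCL2 in VAL at 6 h and BCL2L2 at 3 h and 6 h in both lines also passed as lower. The same holds for BCL2L1 in OCI-LY3 at 6 h. All 4 members were thus called lower in each comparison with 0 h under this scaling, where the median gene was at -1.09 to -2.06. Without the filter on low counts, the sign changed for BCL2L2 -0.0020 in OCI-LY3 between 3 h and 6 h and BCL2L2 0.12 for the difference between lines at 3 h. The call was lost for BCL2A1 -0.40 in OCI-LY3 at 3 h. Gained there was a call for BCL2 -0.67 in OCI-LY3 at 3 h, BCL2 0.53 in OCI-LY3 between 3 h and 6 h and BCL2 -0.44 in VAL at 3 h. So it was for BCL2 0.66 in VAL between 3 h and 6 h. With DESeq2's Wald test, the sign changed for BCL2 0.090 in OCI-LY3 at 6 h, BCL2A1 0.035 in VAL at 6 h and BCL2L2 0.065 for the difference between lines at 3 h. Lost there was the call for BCL2A1 -0.29 in OCI-LY3 at 3 h. New calls there were BCL2L2 0.52 in VAL at 6 h, BCL2L1 0.31 in VAL between 3 h and 6 h and BCL2L1 0.52 for the difference between lines at 3 h. With limma-voom and a weight per group, the call was lost for BCL2A1 0.63 in VAL between 3 h and 6 h. A call was gained for BCL2 -0.68 in OCI-LY3 at 3 h and BCL2A1 -0.17 in OCI-LY3 at 6 h. With limma on the deposited log2 table, the sign changed for BCL2 0.059 in OCI-LY3 at 6 h and BCL2L2 0.074 for the difference between lines at 3 h. The call was lost for BCL2A1 -0.30 in OCI-LY3 at 3 h. With each line fitted alone, the call was lost for BCL2A1 0.69 in VAL between 3 h and 6 h. Gained there was a call for BCL2 -0.68 in OCI-LY3 at 3 h and BCL2 0.60 and BCL2A1 0.24 in OCI-LY3 between 3 h and 6 h. Leaving out the treated VAL libraries of a number leaves 1 library in each treated VAL group, assumed to vary like the other groups, so calls gained there are not evidence of a change. Without the treated VAL libraries numbered 1, the sign changed for BCL2 -0.36 in VAL at 6 h, BCL2 0.49 and BCL2L2 0.16 for the difference between lines at 3 h and BCL2 0.28, BCL2A1 0.10 and BCL2L2 0.080 for the difference between lines at 6 h. Lost there was the call for BCL2A1 0.29 in VAL between 3 h and 6 h. New calls there were BCL2 -0.68 in OCI-LY3 at 3 h, BCL2 0.60 and BCL2A1 0.24 in OCI-LY3 between 3 h and 6 h and BCL2 -1.17 in VAL at 3 h. So it was for BCL2 0.81 in VAL between 3 h and 6 h. Without the treated VAL libraries numbered 2, the sign changed for BCL2 0.25 in VAL at 3 h and BCL2A1 0.17 in VAL at 6 h. A call was gained for BCL2 -0.68 in OCI-LY3 at 3 h, BCL2 0.60 and BCL2A1 0.24 in OCI-LY3 between 3 h and 6 h and BCL2L2 0.42 in VAL at 3 h. So it was for BCL2 0.83 and BCL2L2 0.68 in VAL at 6 h, BCL2 0.59 and BCL2L1 0.35 in VAL between 3 h and 6 h and BCL2 -0.93 and BCL2L1 0.50 for the difference between lines at 3 h. So it was for BCL2 -0.91 for the difference between lines at 6 h.

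With the replicate block, a call was gained for BCL2 -0.68 in OCI-LY3 at 3 h, BCL2L2 0.44 in VAL at 6 h and BCL2 0.68 in VAL between 3 h and 6 h. By the labels, libraries of different times are matched by their number, and the VAL libraries numbered 1 also share the resubmitted mark. Between same-numbered libraries the deviations from the group means correlated across 16374 genes at -0.03, -0.04 and 0.50 in VAL (0 h with 3 h, 0 h with 6 h, 3 h with 6 h) and at -0.03, 0.01 and 0.06 in OCI-LY3. The block gave 868 genes higher and 1498 lower for the difference between lines at 3 h, against 447 and 541 without it. With each library left out in turn, values ran in OCI-LY3 at 3 h over -0.58 to -0.28 for BCL2L1 and -0.46 to -0.32 for BCL2A1. In OCI-LY3 at 6 h the ranges were -0.17 to 0.011 for BCL2. In OCI-LY3 between 3 h and 6 h the ranges were -0.025 to 0.16 for BCL2L2. In VAL at 3 h the ranges were -1.17 to 0.25 for BCL2. In VAL at 6 h the ranges were -0.36 to 0.83 for BCL2, -0.27 to 0.17 for BCL2A1 and 0.18 to 0.68 for BCL2L2. In VAL between 3 h and 6 h the ranges were -0.069 to 1.53 for BCL2, 0.38 to 0.82 for BCL2A1 and -0.061 to 0.44 for BCL2L2. For OCI-LY3 against VAL at 0 h the ranges were -0.82 to -0.51 for BCL2L2. For the difference between lines at 3 h the ranges were -0.93 to 0.49 for BCL2, 0.28 to 0.71 for BCL2L1 and -0.22 to 0.27 for BCL2L2. For the difference between lines at 6 h the ranges were -0.91 to 0.28 for BCL2, -0.34 to 0.10 for BCL2A1 and -0.42 to 0.080 for BCL2L2. Counts of all genes called also moved. Over the settings other than single libraries left out, the genes called higher and lower were 417 to 4586 and 3415 to 10819 in OCI-LY3 at 3 h, against 2917 and 3983 in the fit reported. In OCI-LY3 at 6 h they were 1008 to 5973 and 4656 to 11775, against 4606 and 5469. Between 3 h and 6 h in OCI-LY3 they were 973 to 3841 and 2389 to 4448, against 1958 and 2670. In VAL at 3 h they were 358 to 5890 and 3495 to 11611, against 4840 and 4112. In VAL at 6 h they were 528 to 6220 and 4694 to 13516, against 5564 and 5265. Between 3 h and 6 h in VAL they were 245 to 2352 and 789 to 7672, against 1235 and 2502. For OCI-LY3 against VAL at 0 h they were 1957 to 6754 and 4177 to 6049, against 4880 and 4332. For the difference between lines they were 305 to 2876 and 121 to 3797 at 3 h, against 447 and 541, and 2391 to 3903 and 396 to 4224 at 6 h, against 2021 and 2362. With single libraries left out, that difference at 3 h gave 94 to 1440 and 34 to 2302.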
